A study of Mus musculus with 2 samples.

Results

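The AP-1 transcription factor genes of the FOS, JUN, ATF, BATF and JDP families were followed in nascent RNA of mouse bone marrow-derived macrophages (BMDMs) before and after interleukin-4 (IL-4). The 10 genes were Fos, Fosb, Fosl1, Fosl2, Jun, Junb, Jund, Atf3, Batf and Jdp2, and each was represented by the called transcripts that carried its name, out of 11054 genes named in at least 1 of the 2 libraries. Global run-on sequencing (GRO-seq) labels the RNA that engaged polymerases extend in isolated nuclei, so it reads transcription in progress and not the store of finished mRNA. One library came from wild-type BMDMs grown for 6 days in L929 cell supernatant, a source of the growth factor M-CSF, and left without cytokine (control), and the other from the same kind of culture given 20 ng/ml IL-4 for 1 hr. The mice were 8 to 12 weeks old and, by the study's methods, on the C57BL/6 background. Run-on reactions were made in duplicate and pooled before sequencing, so that there was 1 library per condition, no replicate error and no test for any value below.

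AP-1 is a dimer of basic leucine zipper (bZIP) proteins. FOS proteins cannot pair with one another and bind DNA as partners of JUN proteins, whereas JUN, ATF3 and JDP2 proteins can also pair among themselves, and the composition of the dimer sets whether it activates or holds back a target. FOS and JUN genes are classical immediate-early genes, and in macrophages AP-1 dimers share enhancers with the lineage factor PU.1 and take part in both inflammatory and alternative activation programs.

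Each transcript had a score rounded to 1 decimal, whose scale is not stated in the sources used here, so the scores are compared between libraries and not read as amounts of RNA per gene length. The value of a gene was its highest transcript score. Ratios of IL-4 over control were divided by that of the median gene (log2 ratio of -0.38 over the 8879 genes with a value in both libraries), and are called centred. A gene was counted as higher or lower when its centred ratio was at least 2-fold. Since a name is given to the nearest gene start, a second value was taken from the transcripts that overlapped the annotated gene on its own strand (GENCODE M21, mm10), centred in the same way (median log2 ratio of -0.42). Sequencing depth is unknown. The range in brackets after a ratio is what the rounding of the scores alone allows, and is not an error between cultures. The IL-4 library had more and longer called transcripts than the control library (51365 against 43122, with a median length of 312 bp against 227 bp), and a lower median gene value (0.3 against 0.5).

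Of the 10 genes, 9 had a called transcript in each library, and Fosl1 had none in either. By gene name 2 members, Fosb and Batf, were at least 2-fold higher after IL-4 against 8.06% of all genes, and 0 were lower against 8.62% of all genes. The median centred log2 ratio of the 9 genes was 0.38 (0 over all genes by construction). Within the genes on their own strand, 8 members had a value in both libraries, 1 was higher (Fosl2) against 11.7% of 7196 genes, and 0 were lower against 7.8%, with a median of 0.31. The counts by name and within the gene named different members, and the position of each transcript is therefore given with its value.

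**Figure D1:**
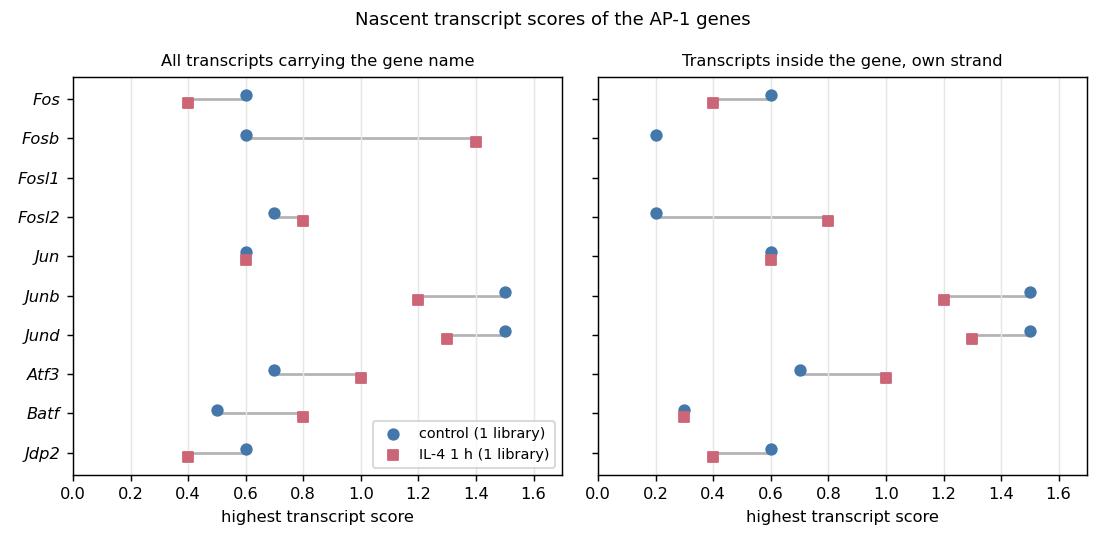
Highest transcript score of each AP-1 gene (horizontal axis, score as deposited) in the control library (circles) and the IL-4 1 h library (squares), over all transcripts that carry the gene name (left) and over those inside the gene on its own strand (right), with 1 library per condition. Fosb moves from 0.6 to 1.4 by name and has no IL-4 value inside the gene, while Fosl2 moves from 0.7 to 0.8 by name and from 0.2 to 0.8 inside the gene.

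Fosl2 encodes FRA-2, a FOS family member that lacks the strong activation domain of FOS. The gene (ENSMUSG00000029135.10) spans chr5:32135801-32157842 on the plus strand of mm10. Its highest score within the gene was 0.2 in control and 0.8 with IL-4, for a centred log2 ratio of 2.42 [2.00 to 2.92], or 5.33-fold. Only 37 of the 7196 genes (0.514%) had a ratio this high or higher. Before centring the log2 ratio was 2.00, so the call does not rest on the centring. The 2 scores came from different places, the promoter in control and intron 1 after IL-4. At the promoter the IL-4 scores were 0.5 and 0.4.

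The shape of the Fosl2 signal differed as well. In control, 2 transcripts of 268 and 243 bp were called on the gene's strand, both in the class promoter-TSS, each with a score of 0.2, and none lay beyond 826 bp from the gene start. After IL-4 there were 13. The 2 at the promoter had scores of 0.5 and 0.4, and the other 11 ran from 999 to 21975 bp downstream of the start with scores between 0.1 and 0.8, adding 4343 bp in all. The longest, 1052 bp in intron 1, had the highest score, 0.8. At the far end, 7 lay in the last exon, 6 of them classed as 3′ UTR. None of these 11 overlapped a control transcript on the same strand, and over the whole library 48.1% of IL-4 transcripts had no control counterpart. Called transcripts covered 511 bp of the gene in control (2.32%) and 5197 bp after IL-4 (23.6%), which is 10.2 times as much. For the median gene this ratio was 1.41, and 95 of 7196 genes (1.32%) one of at least that of Fosl2. Called transcripts thus reached the last exon in the IL-4 library, and none did in control.

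Upstream of the Fosl2 start, a transcript on the opposite strand scored 0.2 in control and 0.4 after IL-4. The value by gene name did not show the difference within the gene. The highest control transcripts carrying the name Fosl2, both at 0.7, lay in an intron of a neighbouring gene at -206479 and -176546 bp from the Fosl2 start, where the IL-4 library had 0.3 and 0.5. By name Fosl2 therefore had 0.7 and 0.8, for a centred log2 ratio of 0.57 [0.38 to 0.77], under the 2-fold limit.

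**Figure D2:**
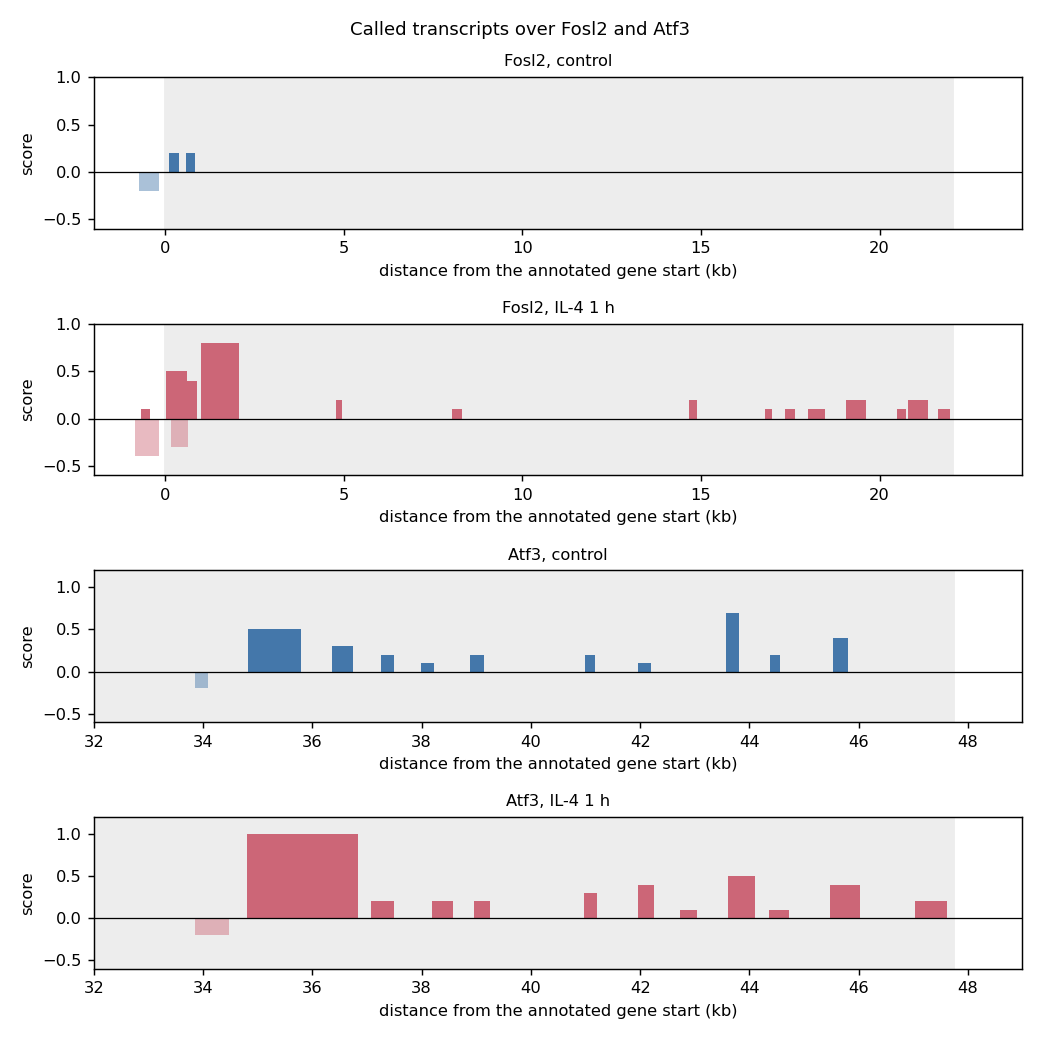
Called transcripts over Fosl2 (upper pair) and Atf3 (lower pair) in the control (blue) and IL-4 1 h (red) libraries, by distance from the annotated gene start in kb (horizontal axis) and score (vertical axis). Bars above 0 are on the gene's strand, paler bars below 0 on the opposite strand with the score drawn downward, and the grey band is the gene. Fosl2 has 2 own-strand transcripts in control against 13 with IL-4, and the first Atf3 transcripts, of 976 and 369 bp in control, form 1 of 2029 bp after IL-4.

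Fos encodes the founding member of the family, the partner of JUN in the classical AP-1 dimer. The gene (ENSMUSG00000021250.13) lies at chr12:85473890-85477273 on the plus strand. Its highest score was 0.6 in control and 0.4 after IL-4, with a centred log2 ratio of -0.21 [-0.51 to 0.09], not a 2-fold difference and with a rounding range that includes 0. The control transcript began 5 bp and the IL-4 transcript 18 bp after the gene start, in exon 1. Control had 2 further transcripts, with scores of 0.3 in intron 1 and 0.1 in exon 4, and the IL-4 library none. Covered length went from 793 bp (23.4% of the gene) to 292 bp (8.63%). Fos thus had the opposite layout to Fosl2, with signal beyond the first exon in control alone. When all its scores were added up, or added up after weighting by length, Fos was at least 2-fold lower (centred log2 ratios of -1.03 and -1.60), as were 13.7% and 16.9% of all genes by these values.

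Fosb, which like Fos is an immediate-early gene and encodes a JUN partner, had little signal of its own. The gene (ENSMUSG00000003545.3) lies at chr7:19302696-19310051 on the minus strand. Within it, control had 1 transcript of 109 bp in intron 1 with a score of 0.2, and the IL-4 library had none. The values by name, 0.6 in control and 1.4 after IL-4 (centred log2 ratio of 1.60 [1.43 to 1.78], 3.03-fold), came from an intergenic plus-strand transcript annotated as a selenocysteine tRNA, 50 bp long at chr7:19301287-19301336 in control and 87 bp at chr7:19301250-19301336 after IL-4. It lay beyond the 3′ end of Fosb, on the other strand. The 2-fold call by name was therefore made on a transcript outside the gene.

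Fosl1, which encodes FRA-1, had no called transcript by name or within the gene (ENSMUSG00000024912.6, chr19:5447547-5455946) in either library. Depth being unknown, this says only that none was called.

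Among the JUN genes, Junb and Jund had the highest scores of the members within their genes in both libraries, and none of the 3 JUN genes was called. Junb, whose product is a weaker activator than JUN and can hold it back, lies at chr8:84974484-84978718 on the minus strand (ENSMUSG00000052837.6). It scored 1.5 in control and 1.2 with IL-4, for a centred log2 ratio of 0.06 [-0.05 to 0.16]. Jund, the most evenly expressed JUN gene across tissues, lies at chr8:70698949-70700616 on the plus strand (ENSMUSG00000071076.6) and scored 1.5 and 1.3 (0.17 [0.07 to 0.28]). In percentile ranks within each library, which need no centring, Junb stood at 89.3 in control and 91.3 after IL-4, and Jund at 89.3 and 92.3. The lower printed scores of both genes after IL-4 thus came with no lower rank.

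The promoter-proximal Junb transcript was 654 bp long without and 1003 bp with IL-4, and that of Jund 640 and 658 bp. Both genes had a second transcript toward the 3′ end, with scores of 0.4 in control and 0.3 after IL-4 (for Junb, 2 transcripts at 0.3 after IL-4). Called transcripts covered 39.5% of Junb in control and 58.0% after IL-4, a ratio of 1.47, and 62.4% and 66.8% of Jund, a ratio of 1.07. The median gene, at 1.41, lay between them.

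Jun, which encodes a partner of FOS that is activated by phosphorylation by JNK, lies at chr4:95049034-95052222 on the minus strand (ENSMUSG00000052684.4). Its highest score was 0.6 in both libraries, for a centred log2 ratio of 0.38 [0.14 to 0.62]. The equal values came from different places. In control the 0.6 was a 134 bp transcript in the 3′ UTR, where the IL-4 library had 0.3, and after IL-4 it was a 960 bp transcript in the 5′ UTR, where control had 0.3 over 1336 bp. On the opposite strand of the promoter, the divergent transcript scored 0.6 in control and 0.4 after IL-4. Covered length was 53.5% in control and 64.8% after IL-4. At the start of Jun the score was thus higher after IL-4. At the 3′ UTR and on the divergent strand the printed scores were lower, as was that of the median gene (log2 ratio of -0.38). The 3′ UTR transcript was longer after IL-4 (596 bp). The divergent scores equal those of Fos, whose rounding range includes 0, so no loss is read from them.

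**Figure D3:**
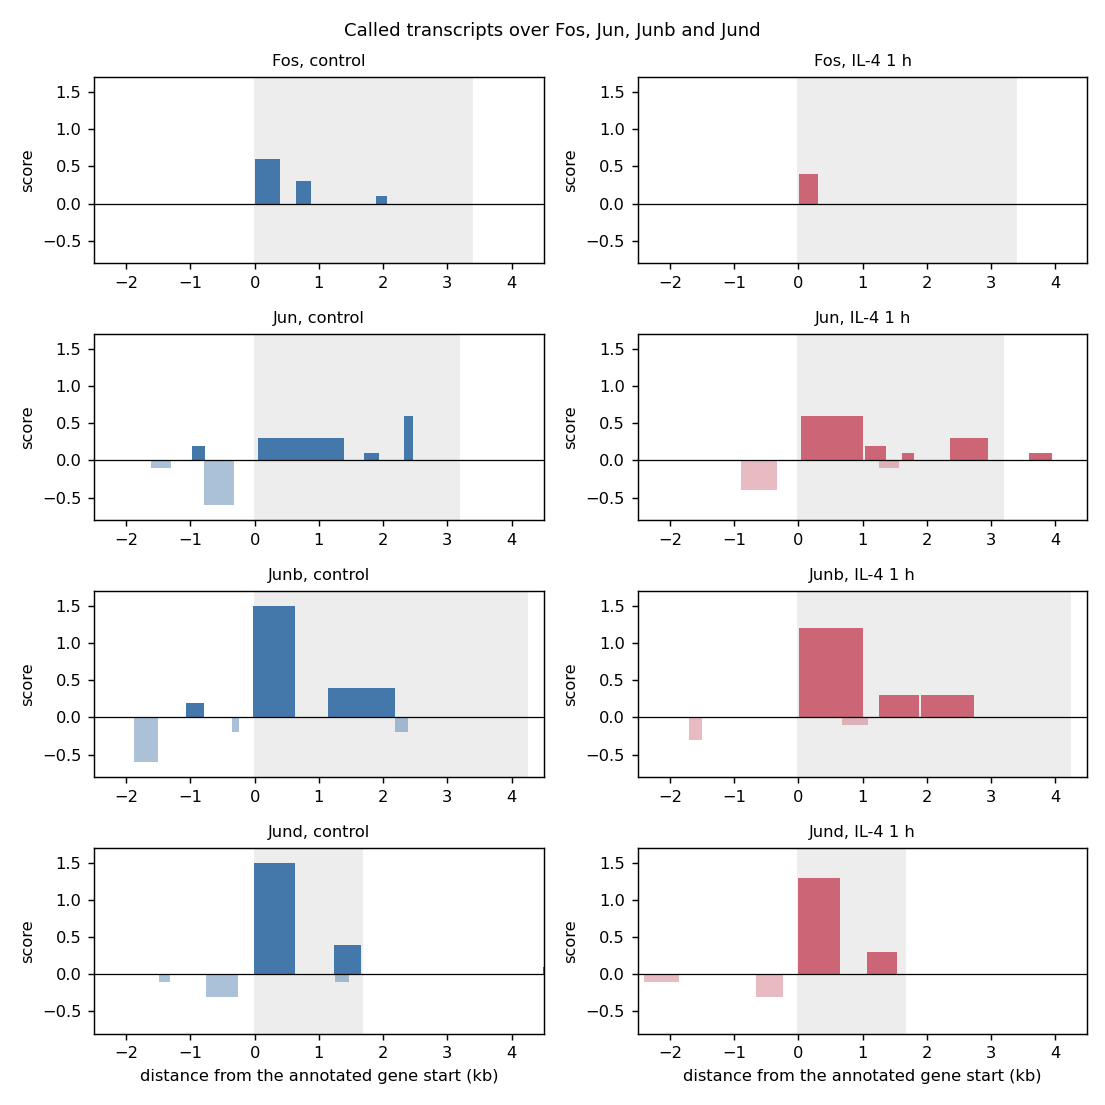
Called transcripts over Fos, Jun, Junb and Jund in the control (blue, left) and IL-4 1 h (red, right) libraries, by distance from the annotated gene start in kb (horizontal axis) and score (vertical axis), with own-strand transcripts above 0, paler opposite-strand ones drawn below 0, and the gene as a grey band. Fos has 3 own-strand transcripts in control and 1 after IL-4, while the first transcripts of Junb and Jund score 1.5 in control and 1.2 and 1.3 after IL-4.

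Nascent transcripts of Fos, Jun, Junb and Atf3 began close downstream of the RefSeq starts of these genes, at 5, 49, 6 and 115 bp in control and at 18, 41, 35 and 92 bp after IL-4. The 250 bases before those starts (RefSeq, GRCm38.p6, which is mm10) are shown because the first called transcripts of these genes lie directly beside them. Capitals mark the letters TGACG or its reverse complement CGTCA, one arm of the cyclic AMP response element bound by ATF and CREB dimers. Fos (chr12:85473640-85473889, plus strand), Jun (chr4:95052223-95052472, minus strand), Junb (chr8:84978749-84978998, minus strand) and Atf3 (chr1:191183334-191183583, minus strand) read, 5′ to 3′ on the gene's strand:
Fos: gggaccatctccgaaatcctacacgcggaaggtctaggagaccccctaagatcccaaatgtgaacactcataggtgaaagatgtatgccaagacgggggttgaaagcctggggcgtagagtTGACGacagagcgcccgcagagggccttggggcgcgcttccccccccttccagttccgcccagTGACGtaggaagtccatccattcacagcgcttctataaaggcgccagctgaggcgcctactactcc
Jun: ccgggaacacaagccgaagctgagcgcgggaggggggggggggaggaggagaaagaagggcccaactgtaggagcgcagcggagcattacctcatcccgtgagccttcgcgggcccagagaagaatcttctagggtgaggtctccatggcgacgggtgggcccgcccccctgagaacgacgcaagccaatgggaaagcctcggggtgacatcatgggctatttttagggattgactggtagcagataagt
Junb: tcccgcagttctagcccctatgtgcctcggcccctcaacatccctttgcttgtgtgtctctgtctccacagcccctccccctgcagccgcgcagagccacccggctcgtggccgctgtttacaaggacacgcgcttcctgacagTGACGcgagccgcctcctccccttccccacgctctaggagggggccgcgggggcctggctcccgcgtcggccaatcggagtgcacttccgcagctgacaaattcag
Atf3: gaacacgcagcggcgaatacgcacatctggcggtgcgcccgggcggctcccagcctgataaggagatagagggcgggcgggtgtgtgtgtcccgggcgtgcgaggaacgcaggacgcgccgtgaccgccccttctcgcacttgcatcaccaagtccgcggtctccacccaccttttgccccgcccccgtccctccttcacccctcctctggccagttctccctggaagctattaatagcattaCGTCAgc

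Of the 10 members, 9 had RefSeq promoter entries, with 11 windows. All 250 bases of the Fosl2 window lay in annotated UTR, so the counts below do not cover the sequence before the Fosl2 gene start. The own-strand Jund transcripts nearest its RefSeq start began 1204 bp (control) and 1203 bp (IL-4) after it, so its window is not beside them. TGACG on either strand was in 6 of the 11 windows (Fos, Fosb, Junb, Atf3, Batf and 1 of the Jdp2 windows), against 17.8% of 32851 mouse promoter windows of the same length. In Fos it occurred at positions -129 and -66 from the start, with a TATAAA at -33, the only one among the member windows (12.4% of all windows). The full element TGACGTCA, which contains TGACG, was in 0 member windows (1.55% of all), and so were the AP-1 site TGANTCA (6.75%), the STAT palindrome TTCNNNGAA (7.02%) and its form with 4 central bases, which STAT6 prefers (5.85%). The 4 windows shown had a GC content of 58.4% (Fos), 61.2% (Jun), 66.4% (Junb) and 65.2% (Atf3), and the median of all windows was 52.4%. The Jun window holds TGACATCA, which matches none of the letters searched and so was not counted. These are matches of letters in short windows, and neither a match nor its absence says where a factor bound.

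Atf3 encodes a stress-induced factor that represses as a homodimer and restrains inflammatory cytokine genes in macrophages. The gene (ENSMUSG00000026628.13) spans chr1:191170296-191218039 on the minus strand from its farthest annotated start. Its highest score was 0.7 in control and 1.0 with IL-4, for a centred log2 ratio of 0.89 [0.72 to 1.07], or 1.86-fold, and 0.93 within the gene. The limit of 2-fold was not reached, although it lies inside the rounding range.

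As for Jun, the highest Atf3 transcripts were in different places. The control value of 0.7 came from 235 bp on a CA repeat in intron 2, where the IL-4 library had 0.5. Just downstream of the promoter, control had transcripts of 976 bp with a score of 0.5 and 369 bp with 0.3, and the IL-4 library had 1 transcript over both, 2029 bp long with a score of 1.0. With simple repeats left out, the centred log2 ratio of Atf3 was 1.32, past the 2-fold limit. Both libraries had 11 own-strand transcripts in the gene, which covered 7.31% of it in control and 12.4% after IL-4. Of these, 2 in control and 3 after IL-4 carried the name of Fam71a, an adjacent gene. On the other strand at the promoter, a transcript scored 0.2 in both. At the start of Atf3 the score was thus higher after IL-4. On the intron 2 repeat the printed score was lower, but over a longer transcript (500 bp after IL-4). The median gene was also lower in printed score (log2 ratio of -0.38), so no difference is read from the repeat.

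Batf encodes a small factor with no activation domain of its own that pairs with JUN proteins and binds beside IRF factors. The gene (ENSMUSG00000034266.6) lies at chr12:85686669-85709087 on the plus strand. By name it scored 0.5 in control and 0.8 with IL-4, for a centred log2 ratio of 1.06 [0.83 to 1.30], or 2.08-fold. Both values came from a transcript on the strand opposite to the gene, in intron 2 (452 bp without and 419 bp with IL-4). On the gene's strand the highest score was 0.3 in both libraries, with a centred log2 ratio of 0.42 [-0.07 to 0.90], from 2 transcripts in control and 1 after IL-4, the nearest 11372 bp from the start. The 2-fold call was thus on antisense signal, and the rounding range falls below the limit.

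Jdp2, a repressor that pairs with JUN and competes with FOS, lies at chr12:85599027-85639878 on the plus strand (ENSMUSG00000034271.16). It scored 0.6 in control and 0.4 with IL-4, for a centred log2 ratio of -0.21 [-0.51 to 0.09]. The transcript behind both values lay on a TG repeat in intron 2. The IL-4 library had 3 further transcripts on the gene's strand with scores of 0.1 to 0.2, the first 506 bp from the gene start, and none of them had a control counterpart, as was the case for 48.1% of all IL-4 transcripts. With simple repeats left out the centred log2 ratio of Jdp2 was 0.91, so the sign of the printed ratio rests on the repeat. That value compared the opposite-strand transcript at the promoter, 0.2 in control and 0.3 after IL-4, a single step of the printed scale. No own-strand control transcript was left, so it does not describe the gene's own strand. Covered length was 0.788% of the gene in control and 2.41% after IL-4, a ratio of 3.05. As in Fosl2, own-strand transcripts were more numerous after IL-4, but the highest own-strand score was not higher.

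**Figure D4:**
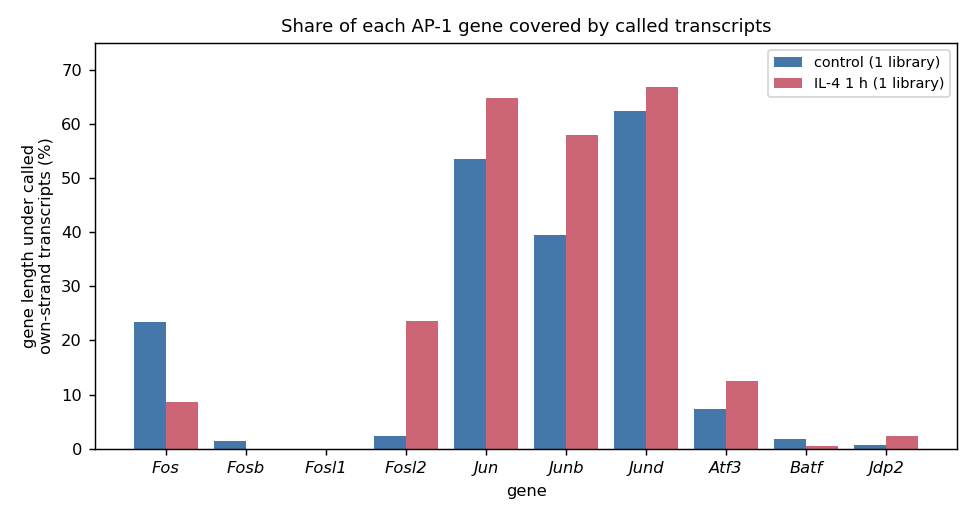
Share of each AP-1 gene's length (vertical axis, percent) covered by called transcripts on the gene's own strand in the control (blue) and IL-4 1 h (red) libraries, 1 library each. Fosl2 goes from 2.32% to 23.6% and Fos from 23.4% to 8.63%, while Jun, Junb and Jund stay above 39% in both libraries.

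Over all members, 52 transcripts carried a member's name in control and 57 after IL-4. On the gene's own strand there were 25 and 36, on the opposite strand 5 and 6, and outside the gene 22 and 15. Own-strand transcripts without a counterpart in the other library numbered 5 of 25 in control (20.0%) and 15 of 36 after IL-4 (41.7%). Among all called transcripts the shares were 37.4% and 48.1%, but that set also holds intergenic and opposite-strand transcripts. Over all transcripts that carried a member's name, wherever they lay, 19 of 52 in control and 23 of 57 after IL-4 had no counterpart. Of the 15 own-strand ones after IL-4, 11 belonged to Fosl2, and the other members had 4 of 23. Added up, the members' transcripts came to 17094 bp without IL-4 and 24788 bp with it, a gain in a library whose median transcript was longer. How much of the difference in covered length came from that difference in calling was not tested.

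Within the genes, the control scores ran from 1.5 for Junb and Jund through 0.7 for Atf3, 0.6 for Fos, Jun and Jdp2 and 0.3 for Batf to 0.2 for Fosl2 and Fosb. After IL-4 the order was Jund (1.3), Junb (1.2), Atf3 (1.0), Fosl2 (0.8), Jun (0.6), Fos and Jdp2 (0.4) and Batf (0.3). Fosl2 moved from the lowest scores to the fourth place. Members that are 0.1 apart have rounding ranges that touch, so the order of Jund and Junb after IL-4 and of Atf3 and the genes at 0.6 in control is not settled by these values.

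**Figure D5:**
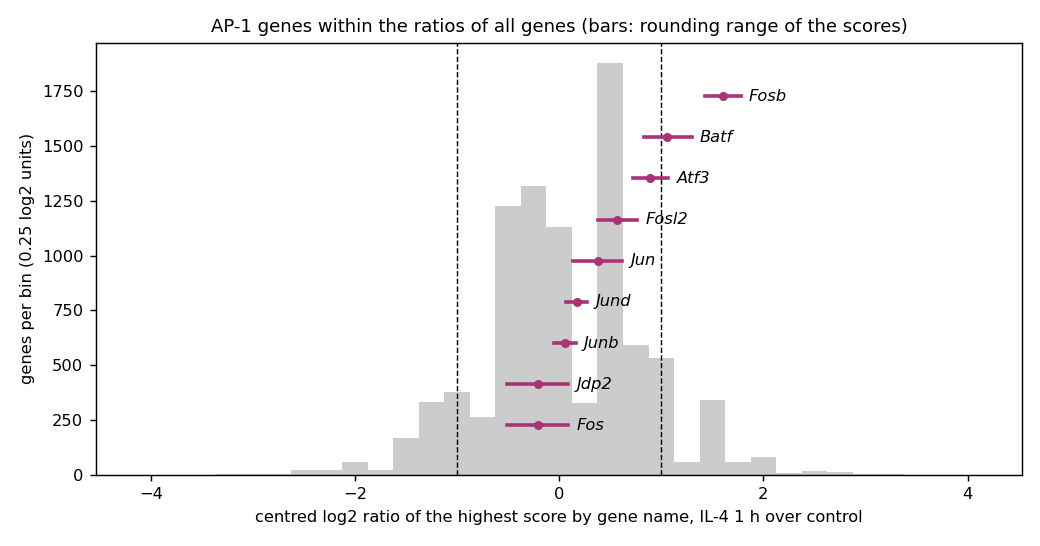
Centred log2 ratios of IL-4 1 h over control by gene name (horizontal axis) for all 8879 genes (grey bars, genes per bin), with the 9 AP-1 genes as points with bars for the rounding range, stacked by value, and dashed lines at 2-fold. Fosb and Batf lie past the upper line and the other 7 between the lines; the comb-like shape of the grey bars comes with scores printed in steps of 0.1.

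The relatives of AP-1 were counted in the same way. Of 11 related bZIP factors, 10 had a value in both libraries, 1 was higher (8.06% of all genes) and 1 lower (8.62%), and the median centred log2 ratio was 0.33. Within the genes 8 had a value in both, 0 were higher (11.7% of all genes) and 1 lower (7.8%), with a median of 0.036. Nfe2l2, which encodes the oxidative stress regulator NRF2, scored 6.5 in control and 1.6 after IL-4 (centred log2 ratio of -1.64 [-1.70 to -1.59]), and within the gene its ratio was -1.61. Maff, a small MAF protein gene, went from 0.1 to 0.2 (1.38 [0.38 to 2.70]), a single step of the printed scale. The bZIP difference with the narrowest rounding range was thus the lower score of Nfe2l2.

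Of 20 kinases and factors that act upstream of FOS and JUN genes or proteins, 15 had a value in both libraries, 0 were higher (8.06% of all genes) and 3 lower (8.62%), with a median of -0.25. Map3k1, a kinase at the head of the JNK cascade, scored 3.3 in control and 1.2 after IL-4 (-1.08 [-1.16 to -1.0]). Mef2a, which encodes a factor that binds the Jun promoter, scored 2.3 and 0.8 (-1.15 [-1.27 to -1.03]). Mapk8, which encodes JNK1, scored 1.8 and 0.6 by name (-1.21 [-1.37 to -1.05]) but 0.4 and 0.3 within the gene, a centred log2 ratio of 0.00. Within the genes 2 of 15 were lower (Map3k1 and Mef2a, against 7.8% of all genes) and 1 was higher (11.7%), Elk1, which went from 0.2 to 0.3. That is a single step of the printed scale, and Elk1 stood at the limit (centred log2 ratio of 1.00 [0.42 to 1.64]). Mapk3, Mapk9 and Mef2c had a value in control alone and Srf in the IL-4 library alone (these 4 and Elk1 are named for their values).

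Of 13 genes with AP-1 sites known from textbooks, 6 had a value in both libraries, 2 were higher (8.06% of all genes) and 0 lower (8.62%), with a median of 0.67. Within the genes 2 of 6 were higher (11.7% of all genes) and 0 lower (7.8%), with a median of 0.21. Spp1, which encodes the cytokine and matrix protein osteopontin, scored 0.2 in control and 1.0 after IL-4 (2.70 [2.30 to 3.19]). Plaur, the urokinase receptor gene, scored 0.1 and 0.3 by name (1.96 [1.12 to 3.19]) but 0.4 and 0.3 within the gene, a centred log2 ratio of 0.00. Hmox1, the heme oxygenase gene, went from 0.2 to 0.3 within the gene and stood at the limit there, with a centred log2 ratio of 1.00. Ccl2, a monocyte chemokine gene, had a value of 0.5 in the IL-4 library alone. Vegfa had the highest control score of the list, 2, and scored 0.8 after IL-4 (-0.94 [-1.07 to -0.82]), just short of the limit. Within the gene its ratio was -0.91. Tnf went from 0.3 to 0.2 (-0.21 [-0.84 to 0.38]). Ccl2, Hmox1, Vegfa and Tnf are named for their values. No value in these lists has a replicate, and their medians are read beside the median of 0 over all genes.

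The labelled cell type was checked against marker genes. All 9 macrophage markers, among them Csf1r (5.6 in control and 4.6 after IL-4), had an own-strand transcript in the gene in both libraries, and their summed score went from 18.9 to 25.9, where Mrc1 alone went from 2.7 to 13.1. No T cell (0 of 3), fibroblast (0 of 3) or mast cell marker (0 of 2) had one, nor did a B cell marker (0 of 3). Of 5 neutrophil markers, S100a8 scored 0.5 and 0.3, Mpo 0.6 in control alone and S100a9 0.2 after IL-4 alone, a summed score of 1.1 in control and 0.5 after IL-4. Their part in the members' values was not tested. In such bulk cultures fewer cells of a type and less RNA per cell cannot be told apart.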

How the data were processed

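GRO-seq libraries of BMDMs were analysed from the transcript lists that the authors deposited, 1 per library. Nuclear run-on with Br-UTP was done in duplicate and pooled, and libraries were made with a small RNA kit. Per the submitters' processing notes and the study's methods, reads were aligned with BWA (0.7.10, default settings) to mm10 and handled with SAMtools (0.1.19), ENCODE artifact regions were removed, and transcripts were called in each library on its own with HOMER (4.2, groseq mode), which also annotated them with a class and a nearest gene. The deposited score, rounded to 1 decimal, was the measurement used. Whether it was scaled to library size or length is not given in the sources used here. No read counts were used, so the depth and the precision it gives are unknown.

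Samples were grouped by the treatment label. The value of a gene was the highest score among the transcripts carrying its name. Log2 ratios of IL-4 over control were centred on the median of genes with a value in both libraries, and a 2-fold limit was applied. Each score was taken to be within 0.05 of its printed value to give the rounding range. The second value used transcripts overlapping a GENCODE M21 protein-coding gene on its strand by at least 1 bp. Transcripts of the libraries were matched by the same overlap. Promoters were 250 bases upstream of RefSeq starts (GRCm38.p6), searched on both strands. All 10 members were named and, of 3 lists of related genes, those past the 2-fold limit. Members and lists were chosen with earlier results of these data known. No test was run (1 library per condition). The calculation was tested on simulated data. Alternatives were other gene values, filters, no centring and filled missing values. Python 3.11.15, pandas 2.3.3, numpy 2.4.6 and matplotlib 3.10.9 were used.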

Additional observations from a re-analysis of the deposited data

How the results depend on the processing

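No paired analysis was possible because there was 1 library per condition, and for the same reason no library could be left out. The number of members at least 2-fold higher (2 by gene name) was 5 with the transcript nearest the TSS (Batf, Fosb, Fosl2, Junb and Jund, against 11.0% of all genes). It was 1 each with same-strand overlap (Fosl2, against 11.7% of all genes), without intergenic transcripts (Batf, 7.98%) and with no centring (Fosb, 5.98%). When 2-fold was asked over the whole rounding range it was also 1 (Fosb), for which no share over all genes was taken. With the sum of score times length it was 3 (Atf3, Fosb and Fosl2, against 17.2% of all genes). With simple repeats left out it was also 3 (Atf3, Batf and Fosb, against 9.78%). The number lower (0) was 1 with the sum of scores (Fos, against 13.7% of all genes) and 1 with the sum of score times length (Fos, 16.9%). It was also 1 with the transcript nearest the TSS (Atf3, against 27.7% of all genes). The nearest transcripts of the libraries overlapped on the same strand in Fos, Fosl2 and Jdp2 alone. The nearest transcript lay on different strands in Fosb, Jun, Junb, Atf3 and Batf, and for Jund it was an opposite-strand transcript upstream. The Atf3 value set 0.5 on the gene's strand in control against 0.2 on the other strand after IL-4, and that of Junb 0.2 on the other strand against 1.2 on its own. Of the 6 calls by this value, only that of Fosl2 (0.2 and 0.4) compared own-strand transcripts in both libraries. The median centred log2 ratio of 0.38 became 0.051 with score times length, 1.0 with the transcript nearest the TSS and 0 with no centring. The causes of the other shifts were not tested. The ratio of Fosl2 was above 0 in 10 of 10 alternatives (0.19 to 2.42) and that of Fos in 0 of 10 (-1.60 to -0.17). Atf3 was above 0 in 9 of 10 (-1.32 to 1.32), Jdp2 in 5 of 10 (-0.58 to 0.91), Junb in 3 of 10 (-0.32 to 2.58), and Jun and Jund in 7 of 10 each (-0.13 to 0.41 and -0.36 to 1.58). Batf was above 0 in 9 of 9 (0.068 to 1.42) and Fosb in 8 of 8 (1.08 to 2.81). Every Fosb value after IL-4 came from the tRNA transcript outside the gene, so these ratios do not describe the gene itself. Where that transcript was left out, Fosb had no ratio. The Batf value by name was of an opposite-strand transcript in both libraries. With same-strand overlap Batf scored 0.3 in each (centred log2 ratio of 0.42 [-0.07 to 0.90]), so its count of positive ratios is not a result about the gene's own strand. Scores of 0.1 to 0.3 are 1 to 3 steps of the printed scale, so that ratios of low genes have wide rounding ranges, and with depth unknown a missing transcript cannot be read as absent transcription.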
